A study of Homo sapiens with 8 samples.

Results

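Among the branch site clusters bound by the U2 snRNP in K562 cells, a set was absent from a single table, the one for Flag-tagged SF3B1 K700E. A cluster belonged to the set, and is called a member here, if its identifier occurred in the tables for SF3A2 K700E, SF3A2 wild type and Flag wild type and not in the table for Flag K700E. There were 7184 members among 122826 distinct clusters. They were chosen by their listing in the 4 tables, so the listing itself is given as a description and carries no test.

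K562 is an erythroleukemia cell line, here engineered to express SF3B1 with a 3xFlag tag. The groups were SF3A2 immunoprecipitations from K700E and from wild-type cells, with 3 libraries each, and Flag immunoprecipitations from K700E and from wild-type cells, with 1 library each. Cells of every group carried a tagged SF3B1, with the K700E substitution or the original sequence. The SF3A2 antibody takes up U2 complexes with or without the tagged protein, while the Flag antibody takes up complexes that hold it. The sources used here do not say whether the cells also made untagged SF3B1 or whether each line was a single clone. The labels name a growth medium and no treatment, and extracts were digested with nucleases to leave short RNA fragments. The labels give K562 as the cell line of every sample, while their library description names HEK293 as the source of the RNA.

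In splicing, the U2 snRNP pairs with the intron branch site, whose bulged adenosine attacks the 5′ splice site in the first step, while the 3′ splice site lies a short way downstream of the branch site. SF3B1 closes around the duplex of U2 snRNA and branch site, and SF3A2 belongs to the SF3A part of the same particle. K700E lies in the HEAT repeats of SF3B1, recurs in myelodysplastic syndromes with ring sideroblasts, and is known for the use of cryptic 3′ splice sites upstream of the canonical ones.

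Each table gives clusters of reads on hg19 with their predicted branch points, ranked from 1 to 3 within a cluster. It holds 1 list per immunoprecipitation and genotype and no read numbers, so no value has a replicate error and the depth behind a cluster is unknown. Absence from a table means that no branch point was listed there, which may or may not mean that there were no reads. Bracketed ranges are 95% Wilson intervals for shares, Newcombe intervals for differences of shares and normal intervals for means, and they cover counting error over clusters only. Neighbouring clusters are not independent. The tables held 116273 clusters for SF3A2 K700E, 86103 for SF3A2 wild type, 73582 for Flag K700E and 69448 for Flag wild type.

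Members made up 8.91% of the 80620 clusters of both SF3A2 tables. The mirror class, with a place in both SF3A2 tables and in Flag K700E but not in Flag wild type, was of nearly the same size at 7201 clusters, or 8.93%. A further 55666 clusters were in all 4 tables and 10569 in both SF3A2 tables only. Below, members are set against these 3 classes. A share of members "in 1 Flag table" is their share among the 14385 members and mirror clusters together, which was 49.9% over the genome (49.1 to 50.8%).

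Members differed from the other classes in where they lay relative to splice sites. The authors marked clusters at 3′ and at 5′ splice sites in the identifier, and 4364 members carried the 3′ mark, 328 the 5′ mark and 2492 neither. The 3′ mark was present on 60.7% of members (59.6 to 61.9%), 57.6% of mirror clusters, 69.7% of clusters of all 4 tables and 41.4% of clusters of both SF3A2 tables only. Over all 122826 clusters the 3′ mark was on 58.6%, and 35.9% had neither mark, against 34.7% of members. The shares of members were thus near those of the whole series. Members exceeded the mirror class by 3.18 percentage points (1.58 to 4.79) and lay 8.99 points under the class of all 4 tables, a difference of -8.99 (-10.2 to -7.80).

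The 5′ mark separated the classes more sharply. It was on 4.57% of members (4.11 to 5.07%), 1.60% of mirror clusters (1.33 to 1.91%), 0.316% of clusters of all 4 tables and 25.3% of clusters of both SF3A2 tables only. The difference between members and mirror clusters was 2.97 points (2.41 to 3.54). Over all 122826 clusters the 5′ mark was on 5.48% (5.36 to 5.61%), so members lay under the share of the whole series. Of the 443 clusters with a 5′ mark in both SF3A2 tables and 1 Flag table, 328 were members, a share of 74.0% (69.8 to 77.9%). The share was 51.3% for 3′-marked clusters (50.2 to 52.3%) and 45.9% for unmarked ones (44.5 to 47.2%). By table, 5′-marked clusters made up 3.58% of SF3A2 K700E, 6.80% of SF3A2 wild type, 0.457% of Flag K700E and 0.848% of Flag wild type clusters. They were thus less frequent in the K700E table of either immunoprecipitation.

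**Figure D1:**
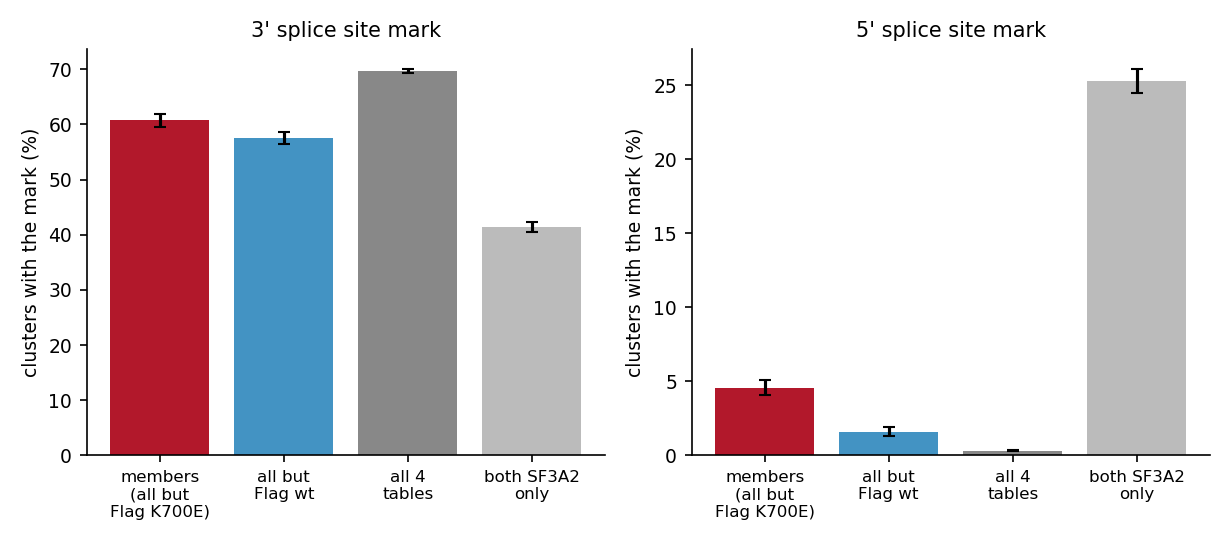
Share of clusters with the 3′ splice site mark (left) and the 5′ splice site mark (right) in 4 listing classes, on vertical axes in percent that differ between panels. Bars are shares over clusters, error bars 95% Wilson intervals. For the 5′ mark, members stand at 4.57%, above the mirror class at 1.60% and below clusters of both SF3A2 tables only at 25.3%.

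Distances to other clusters set the 5′-marked members apart as well. The branch point lies off the middle of its cluster, so a cluster can be oriented by the end nearer to its top-ranked branch points, and the tables carry no strand. Of the 328 members with the 5′ mark, 186 lay 40 to 400 nt from the nearest 3′-marked cluster of all 4 tables, measured between top branch points. On the nearer-end side of that cluster lay 156 of them and on the other side 30, a nearer-end share of 83.9% (77.9 to 88.5%). The median offset on the nearer-end side was 155 nt, with quartiles of 117 and 203 nt, and 152 of these 156 members had the same orientation as the 3′-marked cluster. An internal exon has a 3′ splice site at its upstream border and a 5′ splice site at its downstream border.

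The 3′-marked members did not share this one-sided placement, and the unmarked members lay more often on the opposite side. Only 9.69% of 3′-marked members lay 40 to 400 nt from a 3′-marked cluster of all 4 tables, 209 on the nearer-end side against 214 across from it (49.4%, 44.7 to 54.2%). Unmarked members lay there in 6.62% of cases, 61 on the nearer-end side against 104 across from it (36.97%, 29.98 to 44.6%). In the mirror class 55 of 65 such 5′-marked clusters were on the nearer-end side, and in clusters of both SF3A2 tables only 1151 of 1344. Unmarked clusters gave 53 against 127 in the mirror class (29.4%) and 108 against 180 in both SF3A2 tables only (37.5%). The placements of 5′-marked and of unmarked members were thus also found in the other classes. Taking all members together, those 40 to 200 nt from a cluster of all 4 tables of the same orientation were on its nearer-end side in 59.9% of cases, 260 against 174. Split by mark, the 5′-marked members gave 150 against 34, the 3′-marked 61 against 60 and the unmarked 49 against 80. From 40 to 100 nt the placement was not one-sided, with 46.9% of all members (38.6 to 55.5%) and 56.9% of 5′-marked members, 33 against 25, on the nearer-end side (44.1 to 68.8%).

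For 191 of the 328 members with the 5′ mark, the nearest 3′-marked cluster of any class lay 40 to 400 nt away with the member on its nearer-end side. Flag K700E listed that 3′-marked cluster in 165 of the 191 cases (86.4%, 80.8 to 90.5%), and 152 were in all 4 tables. Flag wild type also listed 86.4% of them. Of the 3′-marked clusters of both SF3A2 tables, Flag K700E listed 83.1% and Flag wild type 83.5%. Of the 71951 3′-marked clusters of any class, Flag K700E listed 49065 and Flag wild type 47026. The share beside 5′-marked members was thus near that of the first set and above that of the second.

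**Figure D2:**
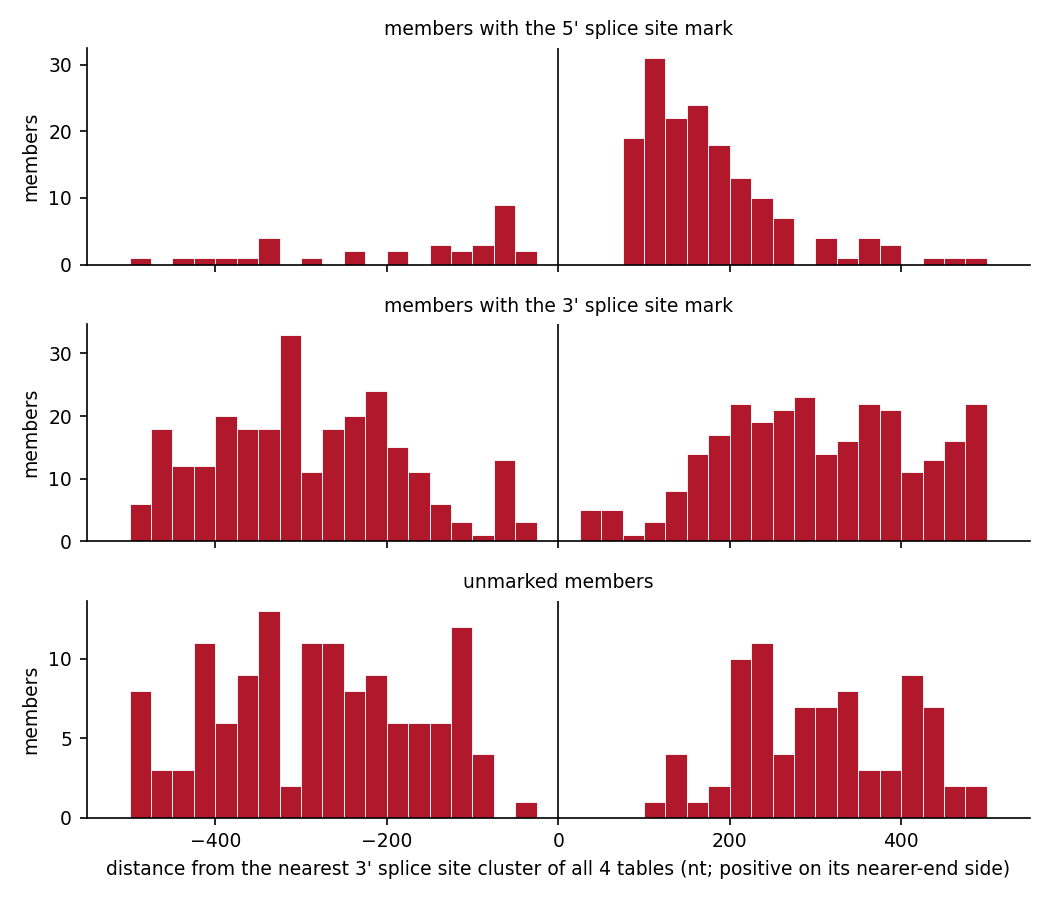
Number of members (vertical axes) by distance in nt from the nearest 3′-marked cluster of all 4 tables, in bins of 25 nt, positive on that cluster's nearer-end side, for members with the 5′ mark, with the 3′ mark and unmarked. The 5′-marked members pile up on the positive side around the median of 155 nt. The 3′-marked members spread over both sides, and the unmarked members lie more often on the negative side.

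The number of branch points per member also ran against the usual order in 5′-marked members. Over all members SF3A2 K700E listed a mean of 2.03 branch points (SD 0.889), SF3A2 wild type 1.47 (SD 0.696) and Flag wild type 1.25 (SD 0.525), the SDs being over clusters. Between the genotypes in SF3A2 this was 0.560 more for K700E (0.538 to 0.582), with more in K700E for 3501 members, equal numbers for 3016 and fewer for 667. The larger size of the SF3A2 K700E table goes with this difference and its part in it was not tested. In 5′-marked members the means were 1.51 for SF3A2 K700E and 1.79 for SF3A2 wild type, a difference of -0.280 (-0.376 to -0.185), with 38 higher, 188 equal and 102 lower in K700E. The 3′-marked members had 2.12 and 1.47 in these tables, and the unmarked members 1.93 and 1.43. The sign was the same in 5′-marked clusters of both SF3A2 tables only, at -0.197 (-0.222 to -0.173), and of all 4 tables, at -0.233 (-0.367 to -0.0992). In the 115 mirror clusters with the 5′ mark the interval included 0 (-0.132 to 0.167).

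Members held fewer listed branch points than clusters of all 4 tables in each table that lists them. The means were 2.03 against 2.72 in SF3A2 K700E, 1.47 against 2.17 in SF3A2 wild type and 1.25 against 1.95 in Flag wild type, differences of -0.695, -0.703 and -0.704. In Flag wild type 79.2% of members had 1 branch point, against 38.9% of clusters of all 4 tables. Clusters of both SF3A2 tables only had still fewer. Members exceeded them by 0.456 in SF3A2 K700E (0.431 to 0.481) and 0.231 in SF3A2 wild type (0.212 to 0.250). Compared with the mirror class, members had fewer branch points in SF3A2 K700E (-0.137, -0.166 to -0.108) and more in SF3A2 wild type (0.158, 0.137 to 0.179). The SF3A2 tables thus leaned in the same direction as the Flag listing that defined both classes. Of the 17339 distinct branch points in members, 6356 (36.7%) were in all 3 tables that list the members and 4829 (27.9%) in SF3A2 K700E alone. For clusters of all 4 tables the same 3 tables shared 48.0%.

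Few member clusters were short. Their median length was 35 nt (quartiles 33 and 39 nt), against 34 nt in the mirror class and in clusters of all 4 tables, and 35 nt with the same quartiles in clusters of both SF3A2 tables only. Clusters under 25 nt numbered 142 among members (1.98%), 494 in the mirror class (6.86%) and 1974 among clusters of all 4 tables (3.55%), and they made up 4.57% of clusters of both SF3A2 tables only. Clusters over 38 nt made up 25.3% of members, 21.2% of the mirror class, 12.0% of clusters of all 4 tables and 30.6% of clusters of both SF3A2 tables only. Among members, those with the 5′ mark were longest, with a median of 39 nt and 52.4% over 38 nt.

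The member share among clusters in 1 Flag table varied with length. It was 22.3% at 15 to 24 nt (19.3 to 25.7%), 38.9% at 25 to 29 nt, 46.1% at 30 to 32 nt and 48.9% at 33 to 34 nt. It was 53.4% at 35 to 36 nt, 55.7% at 37 to 38 nt and 56.8% at 39 to 42 nt (54.6 to 58.9%). Above that it was 52.3% at 43 to 50 nt and 45.7% from 51 nt (40.3 to 51.2%). Of the 3093 clusters of 15 to 24 nt in both SF3A2 tables, Flag K700E listed 79.8% and Flag wild type 68.4%. At 39 to 42 nt Flag K700E listed 63.6% and Flag wild type 66.8%. Within the 3′-marked clusters alone, the share was 42.1% at 25 to 29 nt (35.99 to 48.5%) and 54.9% at 39 to 42 nt (52.0 to 57.8%). With 1 library per Flag group, a difference between libraries in the length of their clusters and one between genotypes cannot be told apart.

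**Figure D3:**
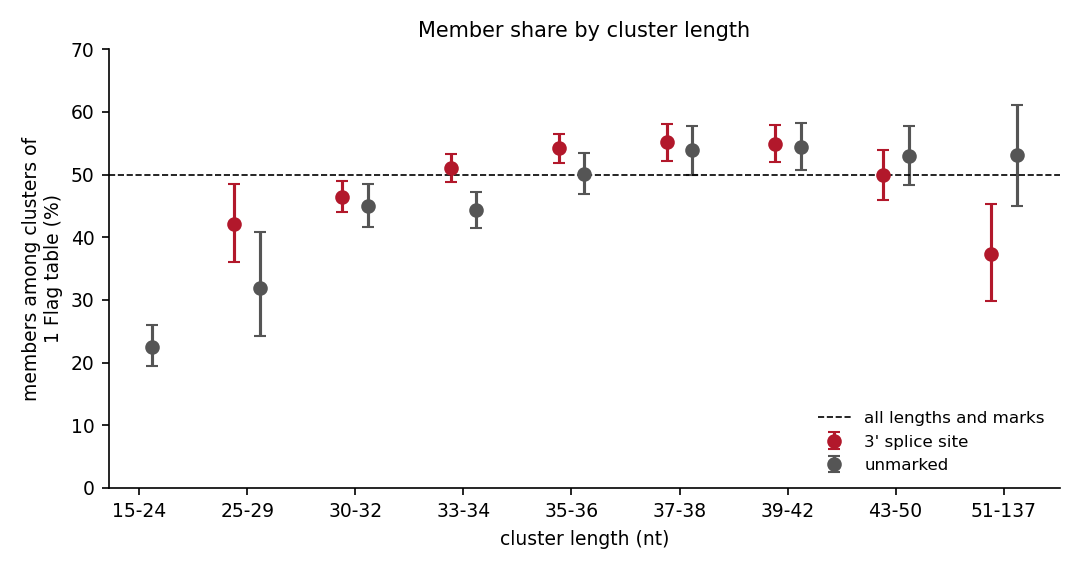
Members as a percentage of all clusters in both SF3A2 tables and 1 Flag table (vertical axis), by cluster length in nt, for 3′-marked and unmarked clusters. Points are shares, error bars 95% Wilson intervals, the dashed line the share of 49.9% over all clusters, and bins under 20 clusters are not drawn. Unmarked clusters of 15 to 24 nt have the lowest share, 22.5%.

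The top-ranked branch point of a member was often, but not always, the same nucleotide in the tables that list it. It was single in all 3 tables for 6358 members, and 4024 of these (63.3%, 62.1 to 64.5%) had it at the same nucleotide in all 3, against 75.5% of clusters of all 4 tables in the same 3 tables. A further 292 had 3 different positions. By pairs, SF3A2 K700E and SF3A2 wild type shared it in 73.9% of members, SF3A2 K700E and Flag wild type in 70.8%, and SF3A2 wild type and Flag wild type in 75.4%. Clusters of all 4 tables gave 83.5%, 80.2% and 83.9% for these pairs. The mirror class gave 75.5% for the SF3A2 pair, so a share under that of all 4 tables was not particular to members. The median distance to the nearer cluster end was 12 nt in SF3A2 K700E, 12 nt in SF3A2 wild type and 13 nt in Flag wild type.

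Examples with the 3′ mark and an identical top branch point in the 3 tables are given as the first such member of a chromosome. On chromosome 1, the cluster from 896633 to 896668 had its top branch point at 896654 in SF3A2 K700E, SF3A2 wild type and Flag wild type, and the nearest Flag K700E cluster was 335 nt away between cluster middles. On chromosome 2, the cluster from 3428237 to 3428276 had 3428262 in all 3, with 3 branch points in SF3A2 K700E and 1 in each wild-type table. On chromosome 3, the cluster from 8810290 to 8810323 had 8810302, and the nearest Flag K700E cluster was 15.4 kb away. These were chosen for the mark and the shared top, and they differed in branch point numbers and in how close a Flag K700E cluster lay. On chromosome 4, the cluster from 724714 to 724744 had 724732 in the 3 tables, 338 nt from a Flag K700E cluster. On chromosome 6, the cluster from 10407093 to 10407127 had 10407104 as the only branch point in each of the 3 tables. No sequence is shown, because no genome of this build was used here.

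Where a single table stood apart from the others, SF3A2 K700E did so most often. Its top branch point differed from a position shared by both wild-type tables in 807 of 6358 members (12.7%, 11.9 to 13.5%), against 9.1% over all clusters of the 3 tables. SF3A2 wild type stood apart in 522 members (8.21%), against 5.56% over all clusters, and Flag wild type in 713 (11.2%), against 8.88%. All 3 rates were higher in members than in clusters of all 4 tables, by 4.04 points (3.204 to 4.91), 2.97 points (2.29 to 3.69) and 2.62 points (1.83 to 3.45). The higher rate in members was therefore not limited to the K700E table.

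The direction of these shifts differed between the tables. Where SF3A2 K700E stood apart, its branch point was closer to the nearer cluster end in 497 members and farther in 309, or 61.7% closer (58.3 to 65.0%). Over all clusters of the 3 tables, 5.92% had such a shift toward the nearer end and 3.15% away from it. Where SF3A2 wild type stood apart the share was 43.8% (228 against 293), and where Flag wild type did it was 46.1% (327 against 383). Over all clusters, shifts in SF3A2 wild type went toward the nearer end in 2.52% and away in 3.03%, and those in Flag wild type in 3.97% and 4.88%. The K700E share exceeded these by 17.9 points (12.4 to 23.2) and 15.6 points (10.6 to 20.5). Oriented by the shared top alone, without the table that stood apart, the shares were 57.0% for SF3A2 K700E, 38.01% for SF3A2 wild type and 37.97% for Flag wild type. The same direction was found in clusters of all 4 tables, at 65.9%, with a difference of -4.26 points for members minus this class (-7.93 to -0.677). Each cluster was oriented by the tops of every table that lists it. Flag K700E thus entered the orientation of that class, also within all clusters of the 3 tables, and not that of members. These shares are therefore not measured alike, and the part of this in the difference was not tested. By mark the share was 60.4% in 3′-marked members, 62.5% in 5′-marked (20 against 12) and 63.9% in unmarked members.

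Short shifts carried the excess. Up to 4 nt, SF3A2 K700E had 356 members shifted toward the nearer end and 151 shifted away from it. Longer shifts were near even, 141 toward against 158 away. Shifts of exactly 4 nt numbered 132 toward and 62 away. In the wild-type tables, shifts of 1 to 4 nt went 121 toward and 176 away for SF3A2, and 162 toward and 245 away for Flag. Their longer shifts went 107 toward and 117 away for SF3A2, and for Flag 165 toward and 138 away. A median shift of 4 nt was common to all 3 tables.

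**Figure D4:**
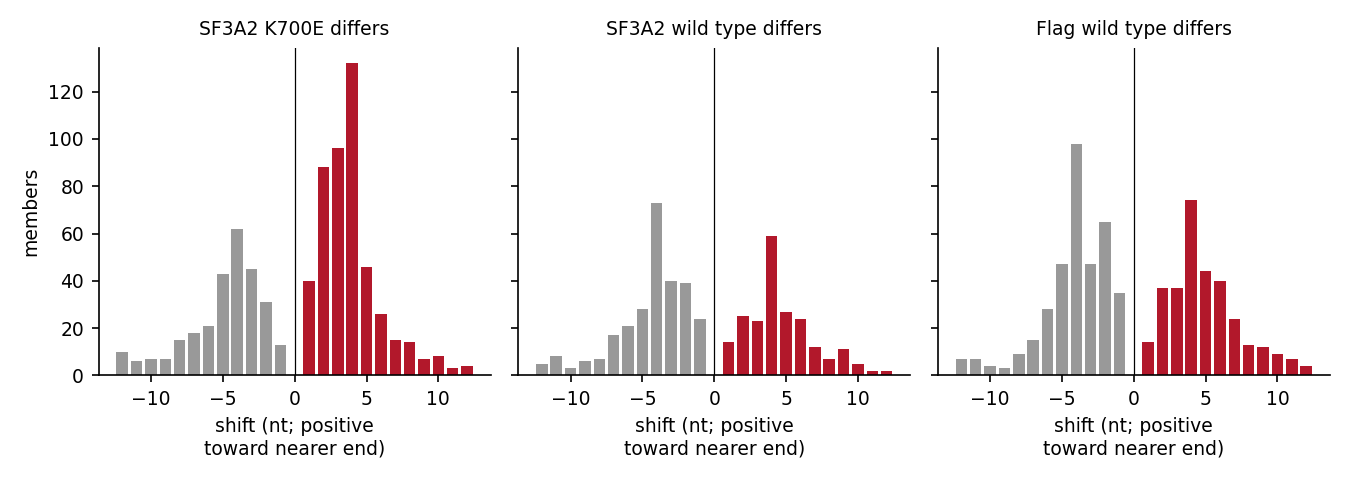
Number of members (vertical axis) by the shift in nt of the top branch point in the table that stands apart, relative to the position shared by the other tables, within 12 nt, positive toward the nearer cluster end. The left panel has its longer bars on the positive side, with 132 members at 4 nt. In the other panels the longer bars up to 4 nt are on the negative side.

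SF3A2 K700E often kept the wild-type top at a lower rank, while the wild-type tables mostly did not list the K700E top. In the 807 members, SF3A2 K700E still listed the wild-type top branch point in 533 (66.0%, 62.7 to 69.2%), mostly at rank 2 (465 members). SF3A2 wild type listed the K700E top at a lower rank in 266 members (32.96%) and Flag wild type in 131 (16.2%). In 493 members (61.1%) neither wild-type table listed the K700E top at all, and in 201 (24.9%) no table listed the top of the other genotype. In 69 members each top was listed in every table, so that there the tables differed in rank only. The tables differ in branch points per member, as given above, and the part of this in these counts was not tested. The counts were made for members only, so it is unknown whether they differ from those of other clusters.

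In coordinate order, the first such members toward the nearer end lay on chromosome 1. The 3′-marked cluster from 986063 to 986097 had its top at 986086 in SF3A2 K700E and at 986082 in both wild-type tables, 4 nt closer to the end. The 3′-marked cluster from 1190879 to 1190918 had 1190888 in SF3A2 K700E and 1190891 in both wild-type tables, 3 nt closer to the start. The 3′-marked cluster from 21071608 to 21071639 had 21071616 in SF3A2 K700E and 21071619 in both wild-type tables. These shifts have the short length that was most frequent. In the other direction, the 3′-marked cluster from 979153 to 979195 had 979181 in SF3A2 K700E and 979183 in both wild-type tables, 2 nt farther from the end. The 5′-marked cluster from 1326654 to 1326706 had 1326682 in SF3A2 K700E and 1326670 in both wild-type tables, 12 nt farther from the start.

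Most members lay among clusters that Flag K700E did list. The nearest Flag K700E cluster was a median of 1746 nt away, within 1 kb for 35.7% of members, within 10 kb for 83.9% (83.1 to 84.8%) and within 50 kb for 95.8%. Mirror clusters had a Flag wild-type cluster within 10 kb in 82.3% of cases. Of the clusters within 10 kb of a member, Flag K700E listed 60.6% and Flag wild type 62.4%. Around mirror clusters Flag K700E listed 63.0% and Flag wild type 57.4%. Around clusters of all 4 tables these shares were 62.6% and 60.6%. Of all 122826 clusters, Flag K700E listed 73582 and Flag wild type 69448. The Flag K700E share around members was thus near that over all clusters. Within 10 kb, 280 members (3.90%) had other Flag wild-type clusters and no Flag K700E cluster, 157 (2.19%) had the reverse, 5873 (81.8%) had both and 874 (12.2%) had a cluster of neither Flag table. For clusters of all 4 tables these shares were 1.62%, 2.07%, 88.1% and 8.197%, and for mirror clusters 1.58%, 3.65%, 80.7% and 14.1%.

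Members were also counted along the chromosomes. Members with no Flag K700E cluster between them formed 6278 runs, of which 5536 held 1 member, 626 held 2 and 116 held 3 or more. Runs of 3 or more took in 396 members. In the mirror class, with Flag wild type as the absent table, there were 86 such runs with 277 clusters. Runs of 5 or more numbered 11 for members and 4 for the mirror class.

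The longest run lay on chromosome 5 from 90103365 to 90159561, a span of 56.2 kb with 7 members. All 7 carried the 3′ mark and the same orientation, and 4 had an identical top in the 3 tables. Its first member, from 90103365 to 90103397, had a single branch point at 90103385 in every table that lists it. A run on chromosome 17 from 8413274 to 8438867 held 6 members, all 3′-marked and of 1 orientation, with no other cluster of any class inside. Its member from 8417228 to 8417262 had the top at 8417237 in SF3A2 K700E and at 8417242 in both wild-type tables. On chromosome 14, a run of 6 from 62194128 to 62211414 held 2 3′-marked and 4 unmarked members of 1 orientation. Another run of 6 on chromosome 17, from 18244520 to 18707438, spanned 463 kb, and a run of 5 on chromosome 1 spanned 15578215 to 15644313. These stretches were ranked by their number of members, so the numbers describe them and support nothing further.

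The share of members in 1 Flag table also varied between chromosomes. It was highest on chromosome 18 at 65.5% (59.6 to 71.0%, 171 members and 90 mirror clusters) and chromosome 22 at 58.5% (53.3 to 63.5%). It was lowest on chromosome 21 at 34.9% (27.8 to 42.7%, 53 and 99) and chromosome 8 at 39.6% (35.4 to 44.0%, 197 and 300), chromosome Y left out with 0 members and 3 mirror clusters. Among 3′-marked clusters alone these shares were 67.4%, 56.5%, 30.4% and 40.1%. Members and mirror clusters thus occurred on each chromosome from 1 to 22 and on X.

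**Figure D5:**
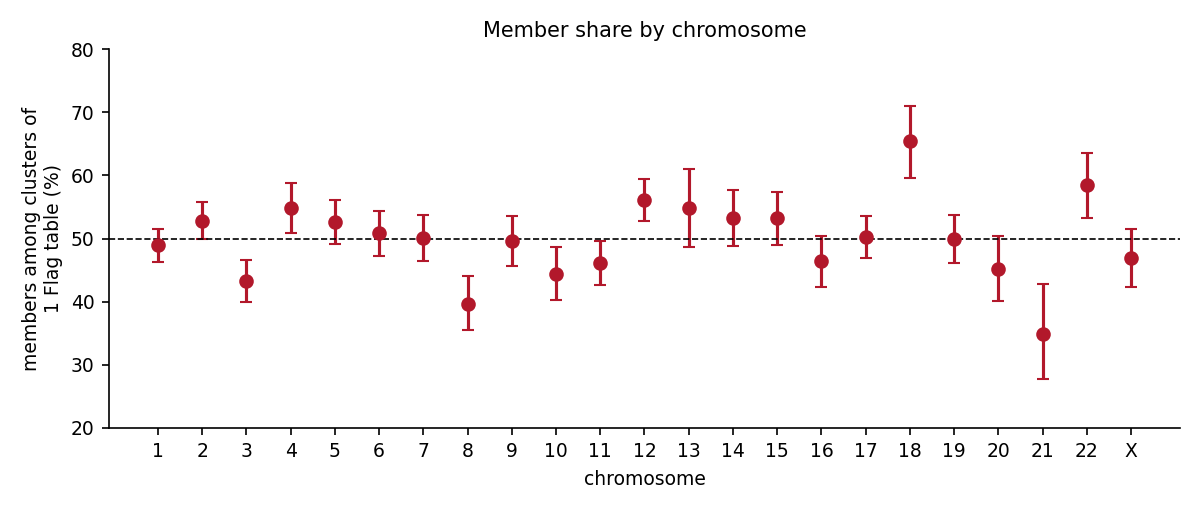
Members as a percentage of clusters in both SF3A2 tables and 1 Flag table (vertical axis, starting at 20%), by chromosome. Points are shares, error bars 95% Wilson intervals and the dashed line the share of 49.9% over the genome. Chromosomes 18 and 21 have the highest and the lowest point, 65.5% and 34.9%.

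In windows of 10 Mb the spread was wider. Of 88 windows with at least 60 members and mirror clusters, 11 lay above the genome share by their intervals and 18 below it. The highest was chromosome 17 from 10 to 20 Mb with 64 members and 7 mirror clusters (90.1%, 81.0 to 95.1%). Next came 46 members and 19 mirror clusters (70.8%) in chromosome 1 from 180 to 190 Mb. Chromosome X had 46 and 21 (68.7%) between 40 and 50 Mb. The lowest share was that of chromosome 11 between 110 and 120 Mb with 17 and 60 (22.1%, 14.3 to 32.5%). Chromosome 8 had 14 and 47 (22.95%) between 140 and 150 Mb. Windows that were rich in members thus lay on several chromosomes, and chromosome 17 held windows on both sides, with 25.9% from 40 to 50 Mb.

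The same windows were compared by clusters that no Flag table lists. Of the clusters listed in 1 SF3A2 table and in no other table, 17.1% were from wild-type cells. This share was 38.8% (28.0 to 50.8%, 26 clusters beside 41 of SF3A2 K700E) in the highest window on chromosome 17, and 7.83% in the lowest on chromosome 11. Over the 88 windows it correlated with the member share at r = 0.565 (Pearson) and rho = 0.433 (Spearman), and r was 0.500 without the highest window. This is a description over windows, which are not replicates and whose clusters share libraries and local depth.

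By 1 Mb, members occurred in 1704 windows with a median of 3, and 140 windows held at least 10. The fullest was chromosome 22 from 19 to 20 Mb with 29 members and 5 mirror clusters, beside 128 clusters of all 4 tables. Of its members 8 carried the 5′ mark and 11 the 3′ mark. Chromosome 17 from 8 to 9 Mb held 24 members and 3 mirror clusters, with 21 members 3′-marked, and chromosome 17 from 18 to 19 Mb held 22 members and 0 mirror clusters. Other full windows were even in the classes, with 24 members and 17 mirror clusters on chromosome 16 from 2 to 3 Mb, and 22 and 20 on chromosome 12 from 56 to 57 Mb. The last of these counts, 22, was reached by 4 windows, of which the first in chromosome order are given.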

How the data were processed

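The submitters' processing notes name cutadapt, STAR (2.7.6a) and the hg19 build. Reads carried degenerate bases for the removal of PCR duplicates, per the labels' protocols. The sources used here do not give how clusters were called, replicates combined or branch points predicted. The deposited tables hold other values, namely positions, and a score, which is the rank of a branch point, given by the authors from 1 to 3. Whether positions count from 0 or 1 is unknown. In SF3A2 K700E, 1 row without an identifier was left out.

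Clusters were matched by identifier in Python (3.11.15), using numpy 2.4.6 and pandas 2.3.3. Correlations over windows came from scipy 1.17.1, and figures were drawn in matplotlib 3.10.9. Length was end minus start. Wilson, Newcombe and normal intervals, at the 95% level, were computed from their formulas, and no p-value was computed, since no group had replicate values. The code was tested on simulated data. The members and lists were chosen with earlier results of these data known. Named members were the first per chromosome with the 3′ mark and 1 shared top, the first per direction of shift, and those of the 5 longest runs and 5 fullest 1 Mb windows, a few of which are printed. Alternatives covered cluster sets, ranks, tolerance, orientation, windows and offsets. Sequence and gene analyses were not run, because no genome or annotation of hg19 was used here.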

Additional observations from a re-analysis of the deposited data

How the results depend on the processing

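No paired analysis was possible because the tables hold 1 list per immunoprecipitation and genotype, so neither the SF3A2 replicate numbers nor a left-out replicate could enter. Membership was 7182 if an overlapping Flag K700E cluster counted as listed and 7049 if one within 50 nt did. In clusters of 30 to 38 nt there were 5089 members, the 3′ mark was on 64.8% and the 5′ mark on 3.03% of members, SF3A2 K700E stood apart in 11.8%, and 65.9% of its shifts went toward the nearer end. Without members within 50 nt of a Flag K700E cluster, the 5′ mark was on 4.04%. Branch points of rank 1 only averaged 1.05 in SF3A2 K700E, 1.04 in SF3A2 wild type and 1.04 in Flag wild type, and 3′-marked members averaged 2.12 in SF3A2 K700E and 1.27 in Flag wild type. Allowing 1 nt, the top was shared in 75.7% of members between the SF3A2 tables, 72.7% between SF3A2 K700E and Flag wild type and 77.0% between the wild-type tables. Counting shifts of at least 2 nt, SF3A2 K700E stood apart in 11.9%. The share toward the nearer end was 57.0% when oriented by the SF3A2 wild-type top and 74.1% by the SF3A2 K700E top, so its size depends on the orientation. Flag K700E listed 76.7% of neighbours within 10 kb that were in both SF3A2 tables, against 78.0% of all 80620 such clusters. The nearer-end share of 59.9% at 40 to 200 nt turned to 46.9% at 40 to 100 nt (38.6 to 55.5%), and to 37.98% in unmarked members, with 50.4% in 3′-marked and 81.5% in 5′-marked members. Of 49 alternative settings, 26 stayed within the main value's interval or 1.5 times the main count, 21 moved outside it and 2 reversed. The orientations by 1 table or by the shared top, the split of the offsets by mark, and the checks of the 5′ mark and of clusters under 25 nt were chosen after seeing the data. Read depth is unknown, and its part in the listing was not tested.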
